A study of Mus musculus with 6 samples.

Results

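Motile cilia genes were taken as the protein-coding genes whose mouse symbol begins with Dnah, Dnaic, Dnai, Cfap, Rsph, Tekt or Drc followed by a digit, together with Foxj1, Ccdc39, Ccdc40, Spef1, Spef2, Hydin, Mcidas, Rfx2 and Rfx3. This rule uses names only, and 72 of the 17193 genes in the deposited tables met it. RNA was sequenced from astrocytes of wild type C57BL/6 mice, 3 months of age, with 3 libraries from mice labelled mock and 3 from mice given quinpirole, an agonist of dopamine D2 receptors. The cells were taken from brain with magnetic beads against the astrocyte antigen ACSA-2, and the comparison asks which transcripts respond when the receptor is activated in the animal. The labels for these libraries state neither the dose and duration of quinpirole nor how many mice went into a library, so the p-values below measure the spread between these libraries. Levels are taken as FPKM, the unit of the study's supplementary data, since the headers of the deposited values name none. In this unit fragments are scaled to transcript length and to sequencing depth.

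A motile cilium bends because dynein motors, set in rows along a ring of doublet microtubules, make neighbouring doublets slide, while radial spokes, nexin links and a central pair of microtubules turn the sliding into a beat. In the brain the ependymal cells that line the ventricles carry tufts of such cilia and move cerebrospinal fluid, whereas an astrocyte normally bears a short primary cilium without dynein arms. The transcription factor Foxj1 switches the motile program on, and the RFX factors Rfx2 and Rfx3 work beside it on the promoters of cilia genes.

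The libraries held astrocyte transcripts, and the ependymal genes examined ranged from very low to high. Of the 12 astrocyte genes examined, 11 had a mean FPKM of at least 1. The summed FPKM of the 12 was 1510 to 1673 in the mock and 1499 to 1528 in the quinpirole libraries. A list of 12 endothelial and mural genes summed to more, 4804 to 5136 FPKM in the mock and 5153 to 5515 FPKM in the quinpirole libraries. Acta2 and Tagln made up most of that sum. Of the 16 ependymal genes outside the motile cilia genes, 7 had a mean FPKM under 1. Tmem212 was at 0 to 0.297 FPKM and Ccdc153 at 0.402 to 1.35 FPKM over the 6 libraries, and both are transcripts by which ependymal cells are usually recognised. These 2 were named after their values were seen. Other genes of the same list went the other way, with Cd24a at 132 to 162 FPKM and Tm4sf1 at 47.9 to 62.8 FPKM. Sox21, Mia and Rarres2 had means of 20.3, 18.5 and 18.1 FPKM. The summed FPKM of the ependymal list, most of it from Cd24a and Tm4sf1, was 251 to 275 in the mock and 271 to 291 in the quinpirole libraries. Of its 9 tested genes 0 passed the limma test described below, which called 1339 of all 12255 tested genes. At an unadjusted p under 0.05 there were 3 of the 9, beside 3839 of all tested genes. Since Tmem212 and Ccdc153 were low and other genes of the list were not, the genes are called motile cilia genes below, with no cell type in the name. In RNA from many cells, fewer cells of a type and less RNA per cell cannot be told apart.

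The motile cilia genes spanned a wide range of levels. Foxj1 stood first with a mean of 124 FPKM, 2.37 times the mean of the next gene, Cfap36, and ranked 504 among all genes. Only 9 of the 72 genes had a mean of at least 10 FPKM, 30 lay between 1 and 10, and 33 lay under 1, of which 13 were under 0.1. The smallest steps between low FPKM values put the depth at 22400000 to 27750000 fragments per library. At that depth 7 of the 33 weak genes still rested on at least 50 estimated fragments per library on average, and 13 rested on fewer than 10. Mcidas, which starts the program of cells with many cilia, was at 0 FPKM in 3 of the 6 libraries and at most at 0.0538 FPKM. Hydin, a giant protein of the central pair, lay between 0.014 and 0.05 FPKM. The high level of Foxj1 stood beside very low levels of Mcidas and Hydin in the same libraries.

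**Figure D1:**
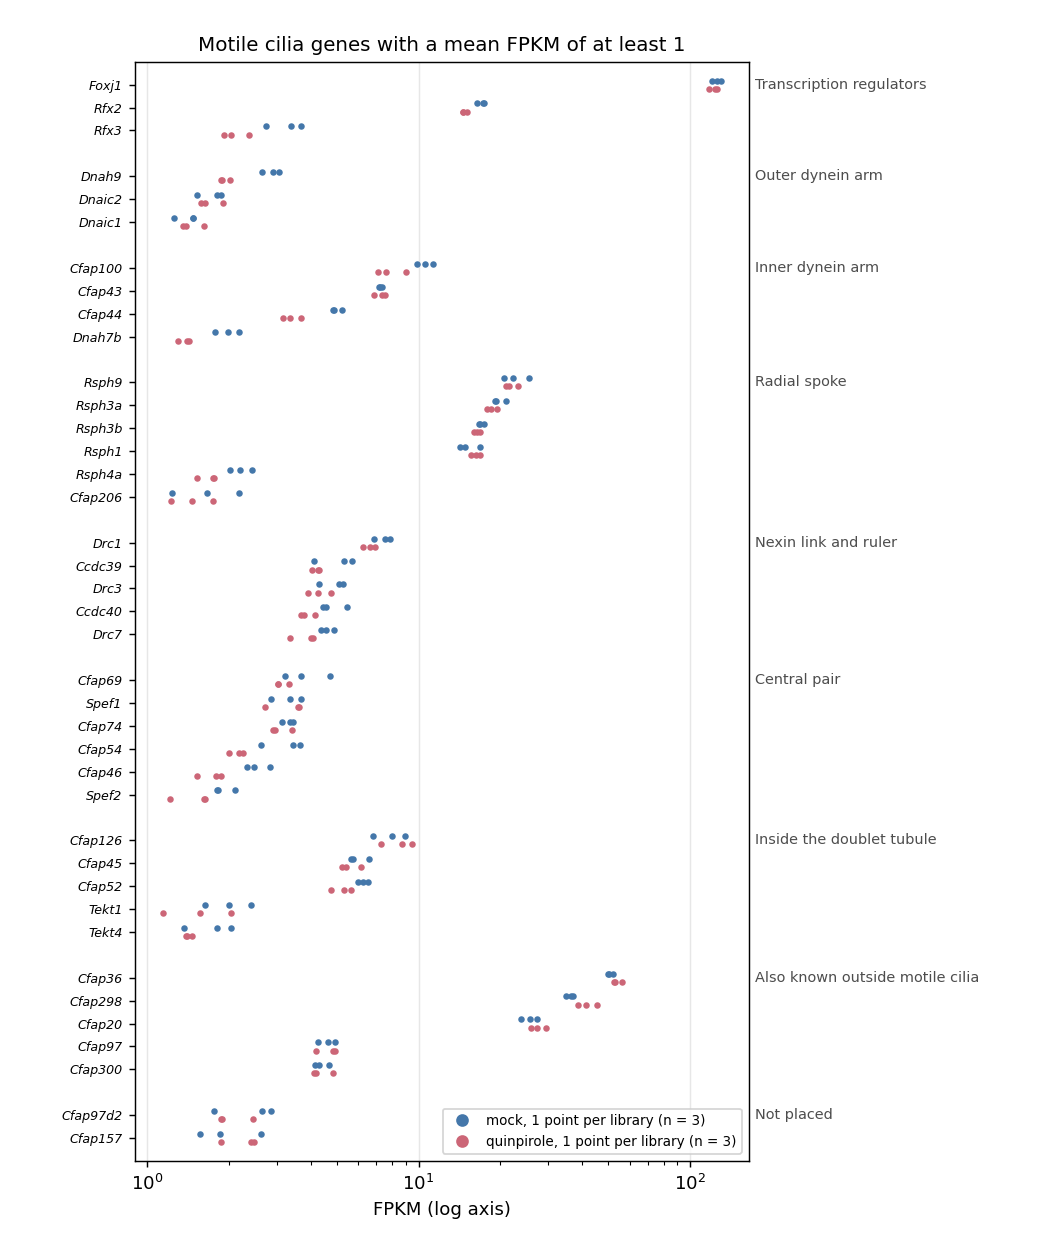
FPKM (log axis) of the 39 motile cilia genes with a mean of at least 1, grouped by role, with 1 point for each mock library (blue) and each quinpirole library (red). Foxj1 lies near 124 FPKM in both groups, and the red points lie left of all blue points for 13 genes.

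These 39 genes were compared between the groups by limma on log2(FPKM + 1), in 1 fit over the 12255 genes of the files with a mean FPKM of at least 1. After quinpirole 8 of the 39 motile cilia genes were lower at an adjusted p under 0.05, which is 20.5% of them, and 0 were higher. Over all tested genes the same test called 5.18% lower and 5.74% higher. The 8 genes were Cfap44, Dnah9, Cfap46, Rfx3, Cfap100, Rfx2, Dnah7b and Cfap54. At an unadjusted p under 0.05 there were 13 motile cilia genes lower and 1 higher, the last being Cfap298. Over all 12255 tested genes 3839 passed that unadjusted p, in both directions together. All 3 quinpirole libraries lay below all 3 mock libraries for 13 of the 39 genes, or 33.3%, against 16.9% of all tested genes, and they lay above for 2 genes, against 20% of all tested genes. The fitted log2 fold change was below 0 for 29 genes and above 0 for 10, while it was below 0 for 46.2% of all tested genes. Its median was -0.14 over the motile cilia genes and 0.02 over all tested genes.

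The 8 calls lay near the threshold, and how many were kept depended on which library was left out. Of the 39 genes 0 were called without mock library 1, without mock library 2, without quinpirole library 1 or without quinpirole library 2. In these fits limma gave 18, 11, 13 and 11 of the 39 lower at an unadjusted p under 0.05, and 1 higher in each. Over all 12255 genes 3056, 2891, 3374 and 2972 passed that unadjusted p, in both directions together. Over all 12255 genes the calls fell from 1339 to 6, 3, 11 and 25 in the same fits. Without mock library 3 there were 3 calls (Cfap44, Dnah9 and Rfx3), and without quinpirole library 3 there were 2 (Cfap100 and Cfap44), beside 1215 and 210 calls over all genes. Each of the 8 genes had a log2 fold change below 0 under each of the 18 or 19 alternative settings it was tested in. For most settings this sign was fixed beforehand, because all quinpirole values of the 8 genes lay below all mock values. Only another scaling or a length or GC correction could have changed it. The median difference of a library from the mock mean, over the 39 genes on the log2 scale, was -0.09, 0.00 and 0.07 in the mock and -0.13, -0.14 and -0.15 in the quinpirole libraries, so the quinpirole libraries lay close together and mock library 1 lay nearest to them.

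**Figure D2:**
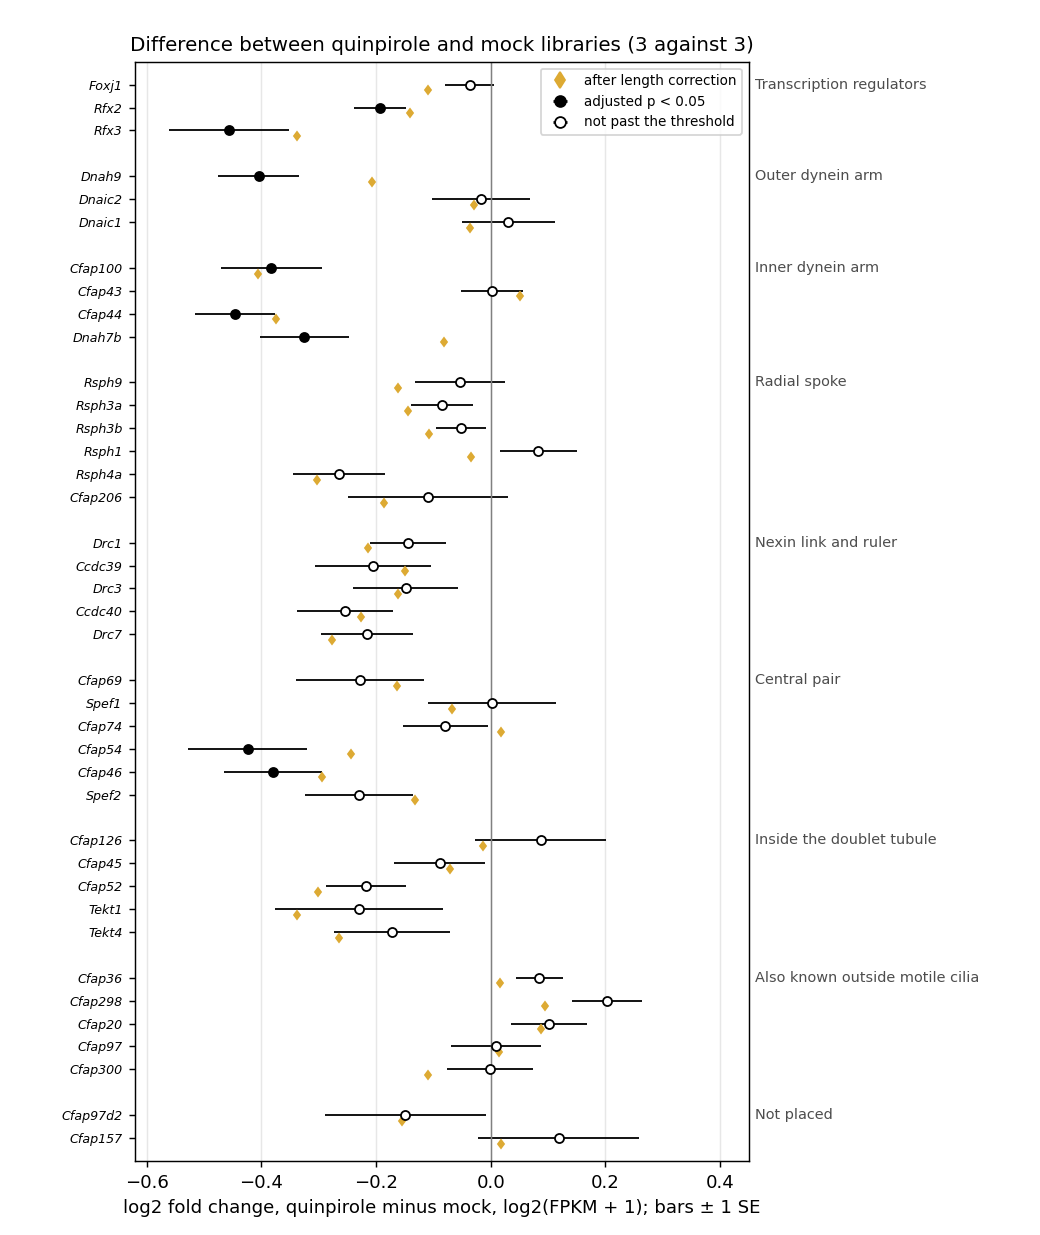
log2 fold change (quinpirole minus mock) of the 39 tested motile cilia genes on the log2(FPKM + 1) scale with bars of 1 SE, filled where the adjusted p is under 0.05, and as diamonds after correction for exonic length. The 8 filled points lie between -0.46 and -0.19.

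Of the regulators, Foxj1 did not pass the test, and both RFX genes of the set fell. Foxj1 (ENSMUSG00000034227, chr11:116330704-116335399, minus strand, GRCm38) measured 121, 126 and 130.1 FPKM in the mock and 118, 126 and 123 FPKM in the quinpirole libraries. The groups overlapped, with a log2 fold change of -0.04 ± 0.04 (SE, limma, adjusted p = 0.586). Rfx2 (chr17:56775897-56831013, minus strand) measured 17.4, 16.4 and 17.3 FPKM in the mock and 14.6, 14.6 and 15.1 FPKM in the quinpirole libraries. All quinpirole values were lower than all mock values, and the log2 fold change was -0.19 ± 0.05 (SE, limma, adjusted p = 0.0412). Rfx3 (chr19:27761721-28011166, minus strand), which is also needed for primary cilia, measured 3.40, 3.70 and 2.73 FPKM in the mock and 1.92, 2.04 and 2.37 FPKM in the quinpirole libraries. Here too the groups were apart, by a log2 fold change of -0.46 ± 0.10 (SE, limma, adjusted p = 0.0395), the largest fall among the 8 genes. Rfx2 was called under 7 of 19 alternative settings, with adjusted p from 0.0332 to 0.199, and Rfx3 under 7 of 18, with adjusted p from 0.0303 to 0.160.

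RFX factors bind an inverted repeat, the X-box, and the promoters of the motile cilia genes were read for its half-site. RefSeq windows of 300 bases on GRCm38.p6, reaching from 250 bases before to 50 after a start site, were at hand for 60 of the 72 genes. The half-site GTTGCC, on either strand, occurred in the windows of 25 of these 60 genes, or 41.7%, against 14.1% of the 27025 genes with a window and 15.2% of the tested genes. It occurred in 6 of the 7 genes called lower that had a window. The letters were settled after a first look at these promoters, so the shares describe them and test nothing. The forkhead core GTAAACA, the kind of site that Foxj1 binds, was in 4 of the 60 genes, or 6.67%. It was in 4.05% of all genes, in 3.09% of the tested genes and in 0 of the 7 genes called lower. The windows of the motile cilia genes held 55.8% G and C, those of all tested genes 61.0%.

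The stretches around the half-site are shown for 4 genes called lower that hold it before the start site, because these are the genes on which the comparison turns. The half-site is in capitals, as read 5′ to 3′ along the gene's strand, and it starts 163 bases before the start site in Dnah7b, 9 in Cfap46, 129 and 19 in Cfap44 and 116 in Rfx2. The start sites are those of RefSeq. In GENCODE Dnah7b starts further upstream, at chr1:46066315, so its stretch lies inside the gene as annotated there. None of the stretches overlaps an annotated exon. In Cfap100 and Rfx3 the half-site lies after the start site, and these stretches are not shown.
Dnah7b, chr1:46066655-46066730, plus strand: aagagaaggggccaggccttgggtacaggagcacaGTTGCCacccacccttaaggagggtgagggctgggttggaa
Cfap46, chr7:139683818-139683859, minus strand: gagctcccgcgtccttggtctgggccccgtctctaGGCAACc
Cfap44, chr16:44394635-44394710, plus strand: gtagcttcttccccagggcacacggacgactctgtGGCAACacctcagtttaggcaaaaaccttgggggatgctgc
Cfap44, chr16:44394745-44394795, plus strand: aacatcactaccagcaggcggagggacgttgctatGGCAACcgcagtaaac
Rfx2, chr17:56831084-56831159, minus strand: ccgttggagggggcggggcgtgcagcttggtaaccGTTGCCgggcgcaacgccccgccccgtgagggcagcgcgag

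A match to such letters is a description of the sequence and says nothing of binding in these cells. Rfx2 itself holds the half-site in its window, and Cfap44 holds it at both places shown.

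The outer dynein arm, the row of motors that sets beat frequency, is represented by 7 genes, of which 3 were tested and 1 was called lower. Dnah9, a heavy chain of the arm (chr11:65831282-66168551, minus strand), measured 2.66, 2.92 and 3.06 FPKM in the mock and 2.03, 1.87 and 1.89 FPKM in the quinpirole libraries. Its groups were apart, with a mean 33.0% lower after quinpirole and a log2 fold change of -0.40 ± 0.07 (SE, limma, adjusted p = 0.0251), and it was called under 9 of 18 alternatives, with adjusted p from 0.0203 to 0.257. The intermediate chains Dnaic1 and Dnaic2, which hold the heavy chains to the doublet, gave another picture. Dnaic2 measured 1.53, 1.81 and 1.87 FPKM in the mock and 1.63, 1.57 and 1.90 FPKM in the quinpirole libraries. Dnaic1 measured 1.26, 1.48 and 1.47 FPKM in the mock and 1.62, 1.36 and 1.39 FPKM in the quinpirole libraries. The groups overlapped for both, with log2 fold changes of -0.02 ± 0.09 and 0.03 ± 0.08 (SE, limma, adjusted p = 0.910 and 0.825).

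The inner dynein arms, which shape the bend, and the proteins that tether them are represented by 15 genes, and 3 of the 4 tested were called lower. Cfap44 (chr16:44394796-44482428, plus strand), part of the tether of an inner arm, measured 4.88, 5.24 and 4.86 FPKM in the mock and 3.36, 3.16 and 3.69 FPKM in the quinpirole libraries. Every quinpirole library was lower, by 31.8% on average, with a log2 fold change of -0.45 ± 0.07 (SE, limma, adjusted p = 0.0235). It was the gene called most often among the motile cilia genes, under 12 of 18 alternatives, with adjusted p from 0.0171 to 0.124. Cfap43, its partner in the same tether, measured 7.21, 7.14 and 7.31 FPKM in the mock and 7.34, 7.51 and 6.87 FPKM in the quinpirole libraries. These groups overlapped, with a log2 fold change of 0.00 ± 0.05 (SE, limma, adjusted p = 0.979), and the difference between the partners was not tested.

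Cfap100 (chr6:90403479-90428797, minus strand), which with Cfap73 anchors an inner arm, measured 9.84, 10.6 and 11.3 FPKM in the mock and 7.12, 7.59 and 8.96 FPKM in the quinpirole libraries. The groups were apart, by 25.3% in the mean and a log2 fold change of -0.38 ± 0.09 (SE, limma, adjusted p = 0.0397), and the gene was called under 9 of 19 alternatives, with adjusted p from 0.0312 to 0.124. Dnah7b, an inner arm heavy chain (chr1:46066315-46373546, plus strand), measured 1.78, 2.18 and 1.98 FPKM in the mock and 1.40, 1.30 and 1.42 FPKM in the quinpirole libraries. Its log2 fold change was -0.33 ± 0.08 (SE, limma, adjusted p = 0.0433), called under 6 of 18 alternatives, with adjusted p from 0.0371 to 0.583. The value is uncertain as a value of this gene alone, because 48.4% of the 50-base words of its longest transcript also occur in other genes, mostly in its copy Dnah7c. Dnah7a and Dnah7c, which share 40.3% and 48.5% of their words in the same way, lay at means of 0.0810 and 0.131 FPKM in the mock and 0.0482 and 0.0801 FPKM in the quinpirole libraries.

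The dynein heavy chains form a family of 15 genes with exonic lengths from 12009 to 26820 bases, and most of them were too weak for the main test. Their summed FPKM was 7.32, 8.11 and 8.0 in the mock and 5.52, 5.11 and 5.47 in the quinpirole libraries. Every quinpirole library lay below every mock library in that sum, of which Dnah9 and Dnah7b made up the larger part. The mean was lower after quinpirole for 13 of the 15 genes, and the groups were apart in that direction for 8. These were both of the tested heavy chains, where 16.9% of all tested genes were apart downwards, and 6 of the 13 with a mean FPKM under 1, where 7.17% of all such genes were. Neither share is matched for length, although genes of long exonic length were lower over the whole table. The length correction described below was not run on the 13 weak chains. Dnah14, at 0.0660, 0 and 0.131 FPKM in the mock and 0.168, 0.197 and 0.121 FPKM in the quinpirole libraries, and Dnah8, at or under 0.0223 FPKM throughout, were the exceptions with a higher mean.

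Dnah2, an inner arm heavy chain, measured 0.512, 0.598 and 0.554 FPKM in the mock and 0.344, 0.251 and 0.282 FPKM in the quinpirole libraries, from 95 to 249 estimated fragments a library. Dnah5, an outer arm heavy chain whose loss causes primary ciliary dyskinesia, measured 0.351, 0.381 and 0.311 FPKM in the mock and 0.186, 0.133 and 0.184 FPKM in the quinpirole libraries, from 53 to 165 estimated fragments. Both were apart between the groups, with means 47.3% and 51.8% lower after quinpirole. When limma was run without a minimum FPKM, 5 of the 72 motile cilia genes were called lower, against 1.77% of all 17193 genes, and Dnah2 and Dnah5 were among them (adjusted p = 0.0397 for each). With a pseudocount of 0.1 and a minimum mean FPKM of 0.1, where 3.23% of all genes were called lower, both missed the threshold (limma, adjusted p = 0.0519 and 0.0683).

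The other heavy chains were below the minimum of the main test as well. Dnah6 had means of 0.501 FPKM in the mock and 0.314 FPKM in the quinpirole libraries, and Dnah11 had means of 0.250 and 0.170 FPKM, both with the groups apart. Dnah10, at 0.113 and 0.0503 FPKM, and Dnah17, at 0.0908 and 0.0351 FPKM, were also apart. For Dnah1, the strongest of the untested heavy chains, the means were 0.726 and 0.695 FPKM and the groups overlapped. Dnah12, at means of 0.0579 and 0.0309 FPKM, and Dnah3, at 0.0235 and 0.00776 FPKM, overlapped as well.

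**Figure D3:**
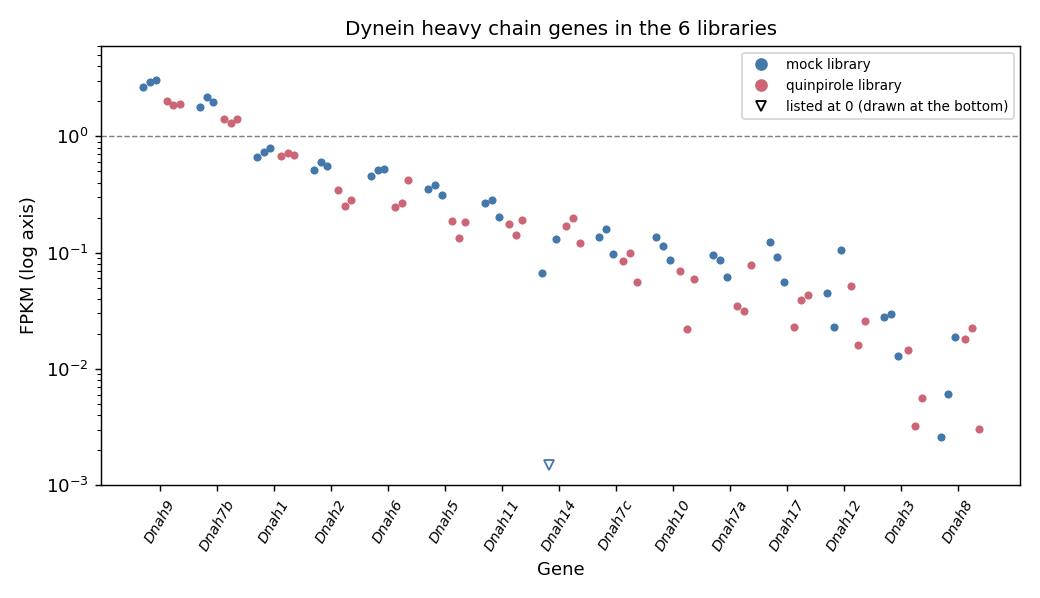
FPKM (log axis) of the 15 dynein heavy chain genes in the 3 mock (blue) and 3 quinpirole (red) libraries, ordered by mean, with a dashed line at 1 FPKM, the minimum mean for the main test. Dnah9 and Dnah7b lie above the line, and the mean of the red points is lower for 13 of the 15 genes.

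The radial spokes, which carry signals from the central pair to the dynein arms, are represented by 10 genes, and 0 of the 6 tested passed the threshold. Rsph9, a spoke head protein, measured 20.7, 22.4 and 25.5 FPKM in the mock and 23.2, 21.0 and 21.5 FPKM in the quinpirole libraries. The groups overlapped (log2 fold change -0.05 ± 0.08, SE, limma, adjusted p = 0.675). The spoke stalk genes Rsph3a and Rsph3b had log2 fold changes of -0.08 ± 0.05 and -0.05 ± 0.04 (SE, limma, adjusted p = 0.322 and 0.453), and since 74.0% and 75.8% of their words are shared with each other, they cannot be read as separate measurements. Rsph4a, the spoke head gene with the lowest p of the class, measured 2.01, 2.21 and 2.44 FPKM in the mock and 1.76, 1.53 and 1.75 FPKM in the quinpirole libraries, and its groups were apart (log2 fold change -0.26 ± 0.08, SE, limma, adjusted p = 0.0717).

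Below the minimum of the main test, 2 spoke genes, named after their values were seen, differed in opposite directions. Rsph10b measured 1.18, 1.18 and 1.16 FPKM in the mock and 0.615, 0.867 and 0.744 FPKM in the quinpirole libraries, and it was called lower without a minimum FPKM (limma, adjusted p = 0.0477) but not with the pseudocount and minimum of 0.1 (adjusted p = 0.0533). It shares 10.1% of its words with other genes. Cfap61, of the complex at the spoke base, measured 0.518, 0.842 and 0.458 FPKM in the mock and 2.05, 1.05 and 0.876 FPKM in the quinpirole libraries. All its quinpirole values were higher, 1 of them far above the rest, and it passed neither of these tests (limma, adjusted p = 0.169 and 0.108). Over the 33 genes with a mean under 1 FPKM the groups were apart downwards for 11, or 33.3%, against 7.17% of all genes under 1 FPKM, and upwards for 1, against 3.73%. The shares over all genes are not matched for length.

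The nexin links between doublets and the ruler that spaces the arms along them are represented by 5 genes. Drc1 and Drc3 belong to the nexin link, and Ccdc39 with its partner Ccdc40 forms the ruler. All 5 had a log2 fold change below 0, from -0.25 to -0.14, and 0 passed the threshold. Drc1 measured 6.85, 7.52 and 7.84 FPKM in the mock and 6.93, 6.62 and 6.25 FPKM in the quinpirole libraries. Ccdc39 measured 4.13, 5.30 and 5.69 FPKM in the mock and 4.07, 4.31 and 4.25 FPKM in the quinpirole libraries. Drc3 measured 4.29, 5.29 and 5.10 FPKM in the mock and 3.92, 4.26 and 4.77 FPKM in the quinpirole libraries. In these 3 genes the groups overlapped, and for Ccdc39 it was the lowest mock library, number 1, that reached the quinpirole values (limma, adjusted p = 0.185 for Drc1, 0.208 for Ccdc39 and 0.307 for Drc3). The other two, Ccdc40 and Drc7, had their groups apart. Ccdc40 measured 4.44, 4.58 and 5.47 FPKM in the mock and 3.78, 4.16 and 3.69 FPKM in the quinpirole libraries (limma, adjusted p = 0.0895). Drc7, also of the nexin link, measured 4.38, 4.55 and 4.89 FPKM in the mock and 4.03, 3.37 and 4.10 FPKM in the quinpirole libraries (limma, adjusted p = 0.117).

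The central pair apparatus is represented by 9 genes, of which 6 were tested and 2 were called lower. Cfap46 and Cfap54 belong to the same projection of the central pair, together with Cfap74. Cfap46 (chr7:139600951-139683817, minus strand) measured 2.34, 2.84 and 2.48 FPKM in the mock and 1.87, 1.79 and 1.53 FPKM in the quinpirole libraries. Its groups were apart, with a log2 fold change of -0.38 ± 0.09 (SE, limma, adjusted p = 0.0383), and it was called under 6 of 18 alternatives, with adjusted p from 0.0331 to 0.156. Cfap54 (chr10:92775619-93081618, minus strand) measured 2.62, 3.66 and 3.44 FPKM in the mock and 2.0, 2.18 and 2.26 FPKM in the quinpirole libraries. It was called (log2 fold change -0.42 ± 0.10, SE, limma, adjusted p = 0.0456) under 4 of 18 alternatives, the fewest of the 8 genes, with adjusted p from 0.0378 to 0.237.

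The third gene of that projection did not pass the threshold. Cfap74 measured 3.15, 3.35 and 3.45 FPKM in the mock and 3.42, 2.96 and 2.90 FPKM in the quinpirole libraries, with overlapping groups (log2 fold change -0.08 ± 0.07, SE, limma, adjusted p = 0.499). Cfap69, of another central pair projection, had means of 3.87 ± 0.764 and 3.13 ± 0.166 FPKM (SD, n = 3 each, limma, adjusted p = 0.208). Spef1, which bundles the central microtubules, had means of 3.31 ± 0.423 and 3.32 ± 0.510 FPKM (SD, n = 3 each, limma, adjusted p = 0.994). Neither passed the threshold, and the groups overlapped in both.

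The proteins inside the doublet tubules, which stiffen them, are represented by 11 genes, and 0 of the 5 tested passed the threshold. Cfap126 measured 6.81, 7.96 and 8.94 FPKM in the mock and 7.25, 8.67 and 9.46 FPKM in the quinpirole libraries, and Cfap45 had means of 6.00 ± 0.510 and 5.58 ± 0.481 FPKM (SD, n = 3 each). Both overlapped between the groups (limma, adjusted p = 0.636 and 0.479). Cfap52 measured 5.98, 6.23 and 6.51 FPKM in the mock and 5.30, 5.62 and 4.77 FPKM in the quinpirole libraries, and here the groups were apart (log2 fold change -0.22 ± 0.07, SE, limma, adjusted p = 0.0816). The tektins Tekt1 and Tekt4, filament proteins of the doublet wall, had log2 fold changes of -0.23 and -0.17 with overlapping groups.

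A class of 5 genes, Cfap36, Cfap298, Cfap20, Cfap97 and Cfap300, was labelled as also known outside motile cilia. The label is loose, since the class holds a dynein arm assembly factor. Of the 5 genes 0 were called lower, beside 5.18% of all tested genes. Cfap36 measured 50.3, 49.8 and 52.0 FPKM in the mock and 52.3, 56.1 and 53.2 FPKM in the quinpirole libraries. Cfap298, a dynein arm assembly factor, measured 35.1, 37.1 and 36.4 FPKM in the mock and 41.6, 45.4 and 38.6 FPKM in the quinpirole libraries. In both the quinpirole values were all higher, and neither passed the threshold (limma, adjusted p = 0.198 and 0.0703). Cfap298 shares 53.6% of its exonic bases with Gm49727 on the opposite strand, and the library kit is not stated to keep strand, so reads of the pair cannot be told apart. Cfap20 measured 23.8, 25.8 and 27.3 FPKM in the mock and 25.9, 27.2 and 29.6 FPKM in the quinpirole libraries, with overlapping groups. The median log2 fold change of the 5 genes was 0.08, while over the other 34 tested genes it was -0.16, with 28 of them below 0. After the length correction described below, the median of the 5 genes was 0.02. The classes were drawn with earlier results of these data known, so this contrast is a description only. Of the 6 genes given no place in the axoneme, Cfap97d2 and Cfap157 were tested and overlapped between the groups (log2 fold change -0.15 and 0.12), and Cfap70 had means of 0.435 and 0.277 FPKM with the groups apart.

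Most of the genes called lower have a long exonic length, and such genes were lower after quinpirole over the whole table. Over 12223 tested genes with a known exonic length, Spearman's rho between log2 fold change and length was -0.47, and over the 39 motile cilia genes it was -0.60, both across genes that share the same libraries. Of the 9 motile cilia genes with at least 7767 exonic bases 6 were called lower, against 16.2% of all tested genes at or above that length. Of the 30 shorter ones 2 were called lower (Cfap100 and Rfx2), against 2.42% of all shorter genes. Their median log2 fold changes were -0.38 and -0.07, against -0.11 and 0.04 over all genes of the same length classes. Lengths were not matched within the classes. Cfap54, Dnah9 and Dnah7b had 14645, 15949 and 19980 bases, and Rfx2, with 7311, lay just under the cut.

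The trend with length was then removed from each library by loess and the test was repeated. Over all tested genes the share called lower went from 5.18% to 2.1%, and among the motile cilia genes 3 were called lower, namely Cfap44, Cfap100 and Cfap52. With GC content removed as well, 2 were called (Cfap44 and Cfap52), against 1.37% of all tested genes. After the length correction alone the log2 fold change of Cfap44 was -0.37, that of Cfap100 -0.41 and that of Cfap52 -0.30. The heavy chain Dnah7b went from -0.33 to -0.08 and Dnah9 from -0.40 to -0.21, and neither passed the threshold. Rfx3 (-0.34), Cfap46 (-0.30), Cfap54 (-0.24) and Rfx2 (-0.14) also missed it after the correction. The median over the 39 genes stayed at -0.14, against 0.01 over all genes, with 32 genes below 0. After the correction rho between log2 fold change and length over the 39 genes was -0.17. Whether the length trend comes from the cells or from the libraries was not tested.

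**Figure D4:**
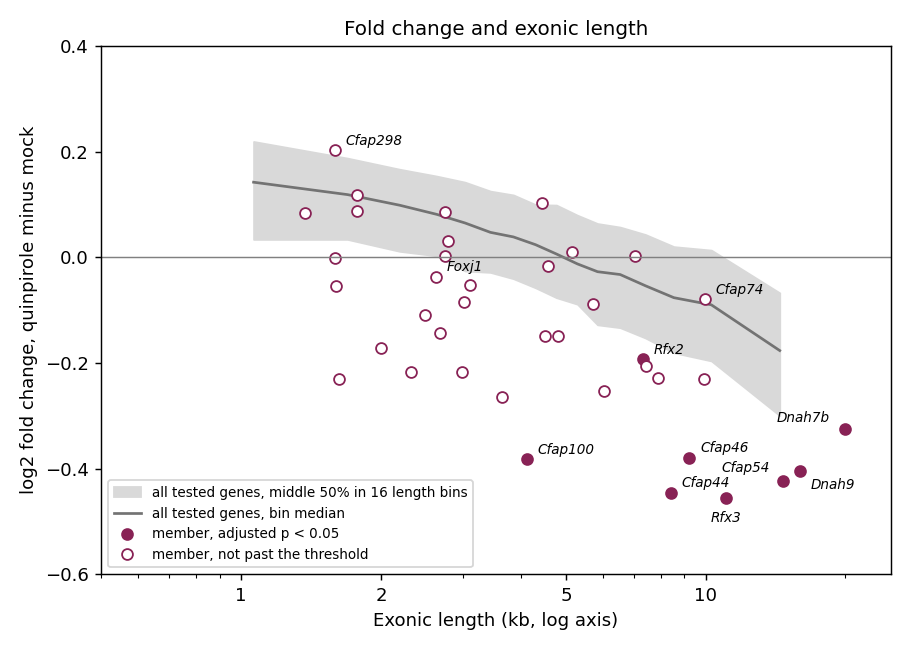
log2 fold change (quinpirole minus mock) against exonic length (kb, log axis) for the 39 tested motile cilia genes, filled where the adjusted p is under 0.05, with the median (line) and the middle 50% (band) of all tested genes in bins of length. The line falls with length, and 6 of the 8 filled points belong to genes of at least 7767 exonic bases.

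Other genes of the axoneme, from a list that holds none of the 72 genes, were described in the same way. Of 61 genes in the files 42 were tested, 0 were called higher and 2 lower, and 30 had a log2 fold change below 0, with a median of -0.10. The share called lower was 4.76%, beside 5.18% of all tested genes, and the share below 0 was 71.4%, beside 46.2%. Dnal1, a light chain of the outer arm, measured 12.4, 13 and 12.5 FPKM in the mock and 9.30, 8.89 and 9.51 FPKM in the quinpirole libraries (log2 fold change -0.42 ± 0.05, SE, limma, adjusted p = 0.0225). Ccdc151, which docks the outer arm on the doublet, measured 7.64, 7.72 and 9.13 FPKM in the mock and 6.47, 6.64 and 5.96 FPKM in the quinpirole libraries (log2 fold change -0.31 ± 0.08, SE, limma, adjusted p = 0.0464). Both had their groups apart, and both were also called after the length correction, as was Dynlrb2. Of the other regulators of the motile program 11 of 18 were tested and 0 passed the threshold in either direction (limma, 3 at an unadjusted p under 0.05), with Tfdp1 at 50.9 ± 0.492 and 54.2 ± 1.46 FPKM and Hes6 at 28.8 ± 2.01 and 32.0 ± 1.63 FPKM (SD, n = 3 each).

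Some markers of other cells differed between the groups, and their part in the values above was not tested. Atp1b2, which encodes the ACSA-2 antigen used for the isolation, fell from 178 ± 2.94 to 156 ± 7.23 FPKM (SD, n = 3 each, limma, adjusted p = 0.0382), and the glutamate transporter Slc1a2 fell from 8.10 ± 0.562 to 5.82 ± 0.619 FPKM (adjusted p = 0.0297). These were the 2 called of 11 tested astrocyte genes. Of 3 tested neuronal genes Stmn2 was called higher, of 5 vascular genes Pdgfrb and of 4 fibroblast genes Col1a1 were called lower. Choroid plexus genes (7 tested), tanycyte genes (5), oligodendrocyte genes (5) and the oligodendrocyte precursor gene Cspg4 gave 0 calls (limma). The most abundant of these were Folr1 at 25.5 ± 1.11 and 27.2 ± 1.02 FPKM and Otx2 at 12 ± 2.10 and 11.2 ± 1.29 FPKM for choroid plexus, Crym at 57.8 ± 3.42 and 64.6 ± 5.38 FPKM and Lhx2 at 40.3 ± 0.804 and 38.4 ± 4.72 FPKM for tanycytes, and Cnp at 160.2 ± 9.86 and 162 ± 5.67 FPKM and Olig2 at 45.7 ± 2.25 and 48.3 ± 0.959 FPKM for oligodendrocytes (mock and quinpirole means, SD, n = 3 each). The groups overlapped for all 6, while Pdgfra, of the precursors, had means of 0.656 and 0.471 FPKM with the groups apart. The smooth muscle genes Acta2 and Tagln stood at 2518 to 2881 and 2228 to 2605 FPKM over the 6 libraries, while the endothelial gene Pecam1 was at or under 0.0596 FPKM.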

How the data were processed

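As the submitters' processing notes and the study's methods say, the authors sequenced paired-end reads from poly-A RNA of the isolated astrocytes (NEBNext Ultra kit). They trimmed the reads and mapped them with TopHat2 to GRCm38. They deposited an abundance for each gene, taken here as FPKM, which is already divided by transcript length and depth. The version of TopHat2, the gene annotation and the program that computed FPKM are not given in the sources used here. Read counts were not used here, and numbers of fragments are estimates: steps of low values in 1254 single-transcript genes of at least 2000 bases were fitted, and 54.5 to 63.2% of the low values fell within 0.1 of a whole fragment. No pair of libraries was identical. Libraries of a group were compared over 680 such genes (at least 50 estimated fragments), and the median chi-square was 2.31 to 3.79 times its value under counting error alone, so no libraries were merged. This does not tell separate animals from repeat preparations.

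Symbols, lengths and positions came from GENCODE M21 (GRCm38) for 17090 of 17193 genes, promoters from RefSeq (GRCm38.p6). Groups and replicate numbers came from the labels. Genes averaging 1 FPKM or more were tested as log2(FPKM + 1) with limma 3.58.1 in R 4.3.3 (lmFit, eBayes with trend, two-sided, Benjamini-Hochberg over 12255 genes, threshold 0.05). A fold change on this scale understates the change of weak genes. The length correction subtracted a loess curve (span 0.3) of each library's deviations on log2 exonic length, and the GC correction did the same on GC content. Exonic length joins all annotated exons of a gene and can exceed its longest transcript, as in Dnah7b (19980 against 12314 bases). On simulated data for this comparison, in which 200 of the 12255 genes carried a log2 change of 1, 192 were recovered and 8 others called. Smaller changes, such as those of the motile cilia genes, were not simulated, nor was the trend with length. Shared sequence was counted in words of 50 bases. The alternatives varied the pseudocount, the minimum FPKM, the scaling, the variance model, the libraries, a replicate block and the length and GC corrections.

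The motile cilia genes, the role classes and the marker and pathway lists were chosen with earlier results of these data known. Named with values were the regulators of the set, each gene past the threshold, the 3 genes of highest mean FPKM in each role, each dynein heavy chain, and for the other lists up to 4 genes past the threshold or else the 2 of highest mean. Further names (Ccdc40, Drc7, Rsph4a, Rsph10b, Cfap61, Hydin, Tekt1, Tekt4, Tmem212, Ccdc153, Sox21, Mia, Rarres2, Dynlrb2, Acta2, Tagln, Pecam1, Rfx1 and Rfx4) were added after their values were seen. Protein sequences were not used here. The result of the microglial marker list is not reported here.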

Additional observations from a re-analysis of the deposited data

How the results depend on the processing

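The main test called 1339 of all tested genes, 8 of the 39 motile cilia genes and 11 genes of the other lists, with a median log2 fold change of -0.14 over the motile cilia genes. In the same order, the counts were 633, 5 and 5 without a minimum FPKM, 783, 4 and 9 after quantile normalization, 714, 5 and 5 without a variance trend, 535, 3 and 7 after the length correction, and 341, 2 and 4 after the length and GC correction. A minimum mean FPKM of 5 left 15 motile cilia genes to test, of which 2 were called, with 17 genes called in the other lists. The median was -0.071 without a minimum and -0.052 with the minimum of 5. Of all called genes 52.6% were higher in the main test, 45.6% under median ratio scaling, 41.0% without a variance trend and 36.1% after quantile normalization. The cause of these shifts was not tested. Another minimum also changed the number of genes tested, to 9014 with the minimum of 5 and 17193 without one. A pseudocount of 0.1, median ratio scaling, robust eBayes and the GC correction alone each gave 8 calls among the motile cilia genes.

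With 1 library left out, the counts ranged from 3 (without mock library 2) to 1215 (without mock library 3) over all genes, from 0 to 3 over the motile cilia genes and from 0 to 10 over the other lists, and the median from -0.18 to -0.057, the latter without mock library 3. Fitting the replicate numbers as a block left 2 calls over all genes, 0 among the motile cilia genes and 0 in the other lists (limma). At an unadjusted p under 0.05 that fit gave 14 motile cilia genes lower and 1 higher, beside 3308 of all genes in both directions together. The block with the length correction left 0, 0 and 0 calls (with 2738 of all genes and 13 motile cilia genes at an unadjusted p under 0.05). Whether equal numbers mark paired libraries cannot be settled with 3 libraries in each group. Deviations from the group means correlated at 0.03, -0.07 and -0.10 for equal numbers (mean -0.05), against a mean of 0.02 for unequal ones.

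Of 717 values of single genes under the alternatives, 584 kept direction and side of the threshold, 86 lost the call, 2 gained it and 45 changed sign. Sign changes concerned genes near 0. Under median ratio scaling Spef1 was at -0.0084, Cfap97 at -0.00098 and Cfap43 at -0.0088. Under quantile normalization Dnaic2 was at 0.0087 and Cfap300 at 0.033. Under the GC correction Cfap97 was at -0.0097 and Cfap43 at -0.0070. Under the length correction, with or without the block, Rsph1 was at -0.035, Cfap126 at -0.013, Spef1 at -0.067, Dnaic1 at -0.037 and Cfap74 at 0.019. Under the length and GC correction Cfap36 was at -0.011, Rsph1 at -0.017, Cfap126 at -0.011, Spef1 at -0.050, Cfap97 at -0.034, Dnaic1 at -0.027 and Cfap74 at 0.028. With 1 library left out, values ranged from -0.12 to 0.025 for Rsph9, -0.0036 to 0.18 for Cfap126, -0.076 to 0.10 for Spef1, -0.23 to 0.017 for Cfap206, -0.036 to 0.071 for Cfap97, -0.073 to 0.018 for Dnaic2, -0.021 to 0.036 for Cfap43, -0.060 to 0.038 for Cfap300 and -0.017 to 0.060 for Dnaic1. Depth limits what can be said of the 13 weakest genes, which rest on fewer than 10 estimated fragments a library, and the intervals of counting error do not cover the spread between libraries.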

Other observations

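The machinery that builds any cilium, motile or primary, was read from a list of intraflagellar transport and Bardet-Biedl syndrome genes. All 36 were tested, 0 were called higher and 3 lower, and 17 had a log2 fold change below 0, with a median of 0.01. The share called lower was 8.33%, beside 5.18% of all tested genes, and the share below 0 was 47.2%, beside 46.2%. Bbs1, of the complex that carries membrane proteins into cilia, fell from 8.88 ± 0.0956 to 7.46 ± 0.305 FPKM (SD, n = 3 each, limma, log2 fold change -0.22, adjusted p = 0.0397). Ift172 fell from 13.6 ± 0.245 to 11.8 ± 0.350 FPKM (log2 fold change -0.19, limma, adjusted p = 0.0438) and Ift140 from 12.3 ± 0.121 to 10.8 ± 0.0744 FPKM (log2 fold change -0.17, limma, adjusted p = 0.0492). After the length correction 0 of the 36 were called lower (limma).

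The RFX family outside the motile cilia genes was measured as well. Rfx4 was the most abundant member per length, at 25 ± 0.964 FPKM in the mock and 23.6 ± 0.718 FPKM in the quinpirole libraries (SD, n = 3 each, limma, adjusted p = 0.254). Rfx1 measured 8.15, 8.07 and 8.66 FPKM in the mock and 7.18, 5.94 and 7.09 FPKM in the quinpirole libraries. Its groups were apart, and it did not pass the threshold (log2 fold change -0.27, limma, adjusted p = 0.0617).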
